A study of Mus musculus with 24 samples.

Results

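Auts2, Tmtc2 and Ccn3 are 3 of 21887 protein-coding mouse genes to which the peaks of a chromatin study of Utx (Kdm6a) were assigned by the nearest gene span. Peaks were joined within each assay where they touched, and each joined interval is called a region. Auts2 had 32, Tmtc2 29 and Ccn3 5 of the 79937 regions of ATAC-seq, an assay of open chromatin. Of the 198726 PU.1 regions, 150 lay nearest to Auts2, 51 to Tmtc2 and 5 to Ccn3. Of the 61422 H3K4me1 regions, 24 lay nearest to Auts2, 5 to Tmtc2 and 1 to Ccn3. The 3 genes were selected on their ATAC peak lists, chosen by the number of regions listed in both Utx KO empty-vector libraries and in neither WT one, so that contrast is described here without a test.

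All samples were lineage-negative bone marrow cells, enriched for hematopoietic stem and progenitor cells, of C57BL/6 mice, and every ATAC sample carried Cas9. ATAC set B held Utx KO cells with a Smarca4 gRNA, Utx KO cells with the empty vector, Utx WT cells with the Smarca4 gRNA and Utx WT cells with the empty vector. ATAC set A held Utx WT cells with a Chd4 gRNA and Utx WT cells with the empty vector. Each of these 6 groups had 2 libraries, PU.1 ChIP-seq had 3 KO and 3 WT libraries, and H3K4me1 ChIP-seq had 2 KO and 2 WT libraries. Culture for 7 days in semi-solid and 5 days in liquid medium, with ATAC 6 days after transduction, stands in the labels of set A in words that describe Brg1 editing, so whether it also holds for set B was not settled. The labels give neither the Utx deletion nor the share of edited cells, and do not say whether replicates came from separate mice. The p-values thus measure only the spread between these libraries, which may be technical.

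Utx removes methyl groups from lysine 27 of histone H3 and is also a subunit of the MLL3 and MLL4 complexes, which write H3K4me1, a mark of enhancers. PU.1 (Spi1) is an ETS transcription factor of myeloid and lymphoid cells. Smarca4 (Brg1) is an ATPase of the BAF remodelling complexes, and Chd4 is an ATPase of the NuRD complex. AUTS2 is a nuclear protein found in a variant Polycomb complex and is best known for its role in brain development. TMTC2 is a membrane protein of the endoplasmic reticulum and belongs to a family of O-mannosyltransferases that act on cadherins. CCN3 (formerly Nov) is a secreted matricellular protein of the CCN family.

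The ATAC lists held 29858 to 35927 peaks in KO Smarca4 gRNA, 40424 to 40974 in KO empty, 41970 to 46141 in WT Smarca4 gRNA and 50796 to 50884 in WT empty libraries. Set A lists held 24797 to 34404 peaks with the Chd4 gRNA and 41449 to 48655 with the empty vector. PU.1 lists held 137836 to 171514 islands and H3K4me1 lists 43699 to 54645. The ATAC lists give positions only, so their depth is unknown and the absence of a peak means that none was listed. KO lists were shorter than WT lists in set B, so a region can leave a list by length alone. All 12 ATAC lists held at least 1 peak within Kdm6a, within Smarca4 and within Chd4, which does not check the edits, since a cut or a deleted exon need not remove a peak.

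A region is called gained where every library of the first group and no library of the other held a peak on it, lost in the opposite case, and kept where all held one. Between KO empty and WT empty libraries, 5 of 28 Auts2 regions, 5 of 29 Tmtc2 regions and 4 of 4 Ccn3 regions were gained. Over all genes 1.98% of 58869 regions were gained and 11.3% lost. Auts2 and Tmtc2 were among the 4 genes with 5 gained regions, beside Gm11677 and Zeb2. Ccn3 was among 12 genes with 4, and 30 genes had 3. Ccn3 was the only gene with 3 or more regions all of which were gained. The other ATAC regions listed in these 4 libraries comprised 15 kept, 1 lost and 7 mixed at Auts2 and 15 kept, 1 lost and 8 mixed at Tmtc2.

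**Figure D1:**
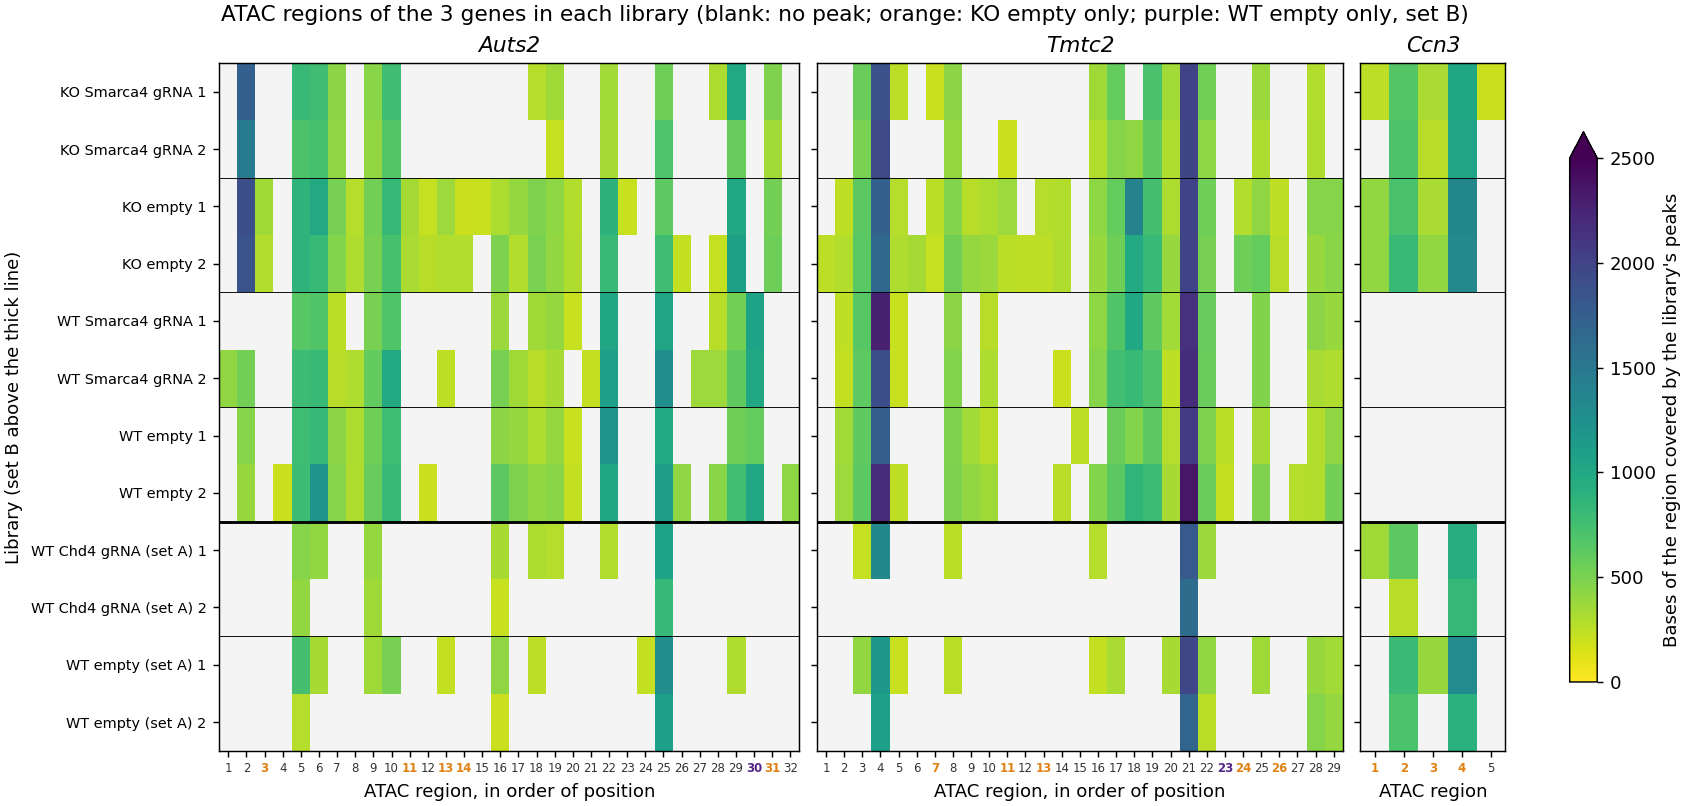
Bases of each ATAC region (columns, in order of position) covered by the peaks of each library (rows); blank fields had no peak, orange numbers mark the 14 regions of both KO empty and neither WT empty library, and purple numbers mark the 2 regions of the opposite kind. The Ccn3 columns are blank in all 4 WT libraries of set B and filled in all 4 WT libraries of set A for regions 2 and 4.

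Auts2 spans 1105888 bases of chromosome 5 (GRCm38, positions 131437333 to 132543220). Its 5 gained regions were narrow, with widths of 285 to 591 bases and a median of 367, against a median of 362 over all 1168 gained regions. Of the 5 regions, 4 lay inside the gene span and 1 lay 120456 bases above its upper end. The region at chr5:131600510-131600876 covered 356 and 290 bases in KO empty libraries and had no peak in the other 10 ATAC libraries. The region at chr5:131996483-131996823, with 335 and 313 bases in KO empty, also had no peak in any other library, and neither did the one at chr5:132219021-132219305, with 200 and 285 bases. These 3 intragenic regions were thus listed in 2 of 12 libraries.

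The gained region at chr5:132215292-132215662 covered 371 and 291 bases in KO empty libraries, and it was listed in 1 WT Smarca4 gRNA library (235 bases) and in 1 WT empty library of set A (233 bases). The region above the gene, at chr5:132663676-132664266, covered 485 and 347 bases in KO Smarca4 gRNA libraries and 527 and 547 bases in KO empty libraries. No WT library of either set held it. It was the only one of the 5 to be listed in both KO groups.

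The single lost Auts2 region lay next to the upper end of the gene span, at chr5:132544237-132545302. It had no peak in the 4 KO libraries, against 1053 and 1000 bases in WT Smarca4 gRNA libraries and 590 and 1013 bases in WT empty libraries, and no peak in set A. The neighbouring region over the upper end of the span, chr5:132542945-132544031, was held by all 8 libraries of set B. It covered 979 and 577 bases in KO Smarca4 gRNA, 997 and 1080 in KO empty, 520 and 614 in WT Smarca4 gRNA and 551 and 752 in WT empty libraries. Open chromatin at this end of Auts2 was therefore listed in both genotypes, with the added interval above it in WT libraries of set B only.

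Kept regions of Auts2 also differed in width, and the following 2 were singled out after their values were seen. The region at chr5:131537168-131539195 covered 1729 and 1459 bases in KO Smarca4 gRNA and 1901 and 1864 bases in KO empty libraries. It covered 0 and 519 bases in WT Smarca4 gRNA and 451 and 383 bases in WT empty libraries, and no library of set A held it. The 4 KO values lay above the 4 WT values. The region at chr5:132395211-132396548 went the other way, with 342 and 339 bases in KO Smarca4 gRNA and 888 and 806 in KO empty libraries. It covered 1029 and 1085 bases in WT Smarca4 gRNA and 1218 and 1018 bases in WT empty libraries, so that the 4 KO values lay below the 4 WT values. How often kept regions of all genes were apart in this way was not computed. The empty-vector values come from the libraries that chose the gene.

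Tmtc2 lies on the minus strand of chromosome 10 (GRCm38, positions 105187663 to 105574479). Its 5 gained regions had widths of 269 to 550 bases, with a median of 296. They lay at chr10:105165333-105165628, chr10:105318913-105319278, chr10:105399395-105399673, chr10:105592324-105592873 and chr10:105645443-105645711. Thus 1 lay below the span, 2 inside it and 2 above its upper end, where transcription starts. In KO empty libraries these regions covered 224 to 550 bases. The first was also listed in 1 KO Smarca4 gRNA library, with 214 bases, and the second in the other, with 201 bases. No WT library of set B and no library of set A held any of the 5 regions. Without KO empty library 1, or without WT empty library 2, 8 Tmtc2 regions were gained. Leaving out a library loosens the rule for every gene, and the share over all genes was not computed for it.

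The lost Tmtc2 region at chr10:105580668-105580928 covered 259 and 234 bases in WT empty libraries and had no peak in any other library. The promoter itself was open throughout. The region at chr10:105573409-105575758, which contains the 300 promoter bases of RefSeq (GRCm38.p6, chr10:105574430-105574729, minus strand), was held by all 12 libraries. It covered 1998 and 1981 bases in KO Smarca4 gRNA, 2001 and 1996 in KO empty, 2148 and 2172 in WT Smarca4 gRNA and 2072 and 2350 in WT empty libraries. In set A it covered 1797 and 1616 bases with the Chd4 gRNA and 1965 and 1685 bases with the empty vector. It was the only Tmtc2 region held by all of them. Of the 3 genes, only Tmtc2 was matched in the promoter table, and its promoter sequence is shown for this open region, with a match to a C/EBP motif in capitals.
Tmtc2 promoter: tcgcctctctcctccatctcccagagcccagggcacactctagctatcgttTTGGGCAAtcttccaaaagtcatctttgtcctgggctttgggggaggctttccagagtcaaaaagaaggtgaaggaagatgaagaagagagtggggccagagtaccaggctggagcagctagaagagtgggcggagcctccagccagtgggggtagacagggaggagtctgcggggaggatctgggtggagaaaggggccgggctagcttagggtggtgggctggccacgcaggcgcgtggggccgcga
Of its bases, 60.3% are G or C. The C/EBP motif, searched as TTGCNNAA on both strands, matched once, starting at base 52, and 10.8% of 32851 promoters of the same length held a match. Searched the same way, the ETS family motif GGAAGT had 0 matches (23.8% of promoters held one), and so had the motif of the GATA factors, written AGATAA (11.2%), the AP-1 family motif TGANTCA (7.81%) and the RUNX family motif TGTGGT (16.8%).

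Ccn3 spans chr15:54745910-54753762 (GRCm38). No WT library of set B held any ATAC peak nearest to Ccn3, while all KO libraries of set B did. The region over the lower end of the gene, chr15:54745074-54746525, covered 1028 and 1043 bases in KO Smarca4 gRNA and 1354 and 1327 bases in KO empty libraries, and 0 bases in the 4 WT libraries of set B. In set A it covered 946 and 836 bases in WT Chd4 gRNA and 1298 and 900 bases in WT empty libraries. The same region was thus absent from WT lists in one set and present in all WT lists of the other.

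Below the gene, the region at chr15:54736181-54737000 covered 673 and 695 bases in KO Smarca4 gRNA, 720 and 809 in KO empty and 0 in all WT libraries of set B. It covered 629 and 271 bases in WT Chd4 gRNA and 792 and 707 bases in WT empty libraries of set A. The region at chr15:54742632-54743055 covered 317 and 265 bases in KO Smarca4 gRNA and 322 and 404 bases in KO empty libraries, and outside these it was listed in 1 WT empty library of set A (388 bases). The most distant one, chr15:54700095-54700526, covered 245 and 0 bases in KO Smarca4 gRNA, 409 and 410 in KO empty and 360 bases in 1 WT Chd4 gRNA library. The remaining region, chr15:54768377-54768580, was listed in 1 KO Smarca4 gRNA library only, with 204 bases.

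Of the 14 gained regions, both WT empty libraries of set A held 2, both at Ccn3, or 14.3%, against 8.65% of all 1168 gained regions. At least 1 of them held 3 Ccn3, 1 Auts2 and 0 Tmtc2 regions, against 16.5% of all gained regions. Sets A and B also differed in marker genes. Peaks nearest to the myeloid granule genes Mpo and Elane were listed in no set B library, while in WT empty libraries of set A they covered 4288 and 2451 bases at Mpo and 333 and 445 bases at Elane. Peaks nearest to the mast cell protease gene Cpa3 covered 10405 and 10720 bases in KO empty and 5612 and 7209 bases in WT empty libraries of set B, against 2968 and 2410 bases in WT empty libraries of set A. The part of these differences between the sets in the Ccn3 result was not tested. In bulk samples, fewer cells of a type and less open chromatin per cell cannot be told apart.

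Over the whole mast cell list (Cpa3, Ms4a2, Fcer1a), KO empty libraries of set B had summed lengths of 14887 to 15535 bases and WT empty libraries 9913 to 13677, with 5 of 29 regions gained and 1 lost, against 1.98% gained and 11.3% lost over all genes. Over the 6 myeloid genes the sums were 5460 to 5898 bases in KO empty and 8153 to 8846 in WT empty libraries, with 0 of 13 regions gained and 1 lost. The 6 stem and progenitor genes, 5 of which had a peak in every ATAC library, had 86407 to 87050 bases in KO empty and 87718 to 105354 in WT empty libraries, with 2 of 163 regions gained and 12 lost. Of 6 erythroid and 11 B cell regions 0 were gained and 0 lost. The megakaryocyte list had 0 gained and 2 lost of 6, the T cell list 0 and 1 of 5, the neural list 0 and 1 of 8, and the stroma and endothelium list 1 and 4 of 29. Cd3g was the only marker without a peak in any ATAC library. In the Smarca4 gRNA libraries the mast cell sums overlapped, at 11214 to 14588 bases in KO and 12340 to 18234 bases in WT libraries. The mast cell sum was thus higher in KO empty than in WT empty libraries, although Ms4a2 alone covered 1582 and 1894 bases in KO empty and 2139 and 3755 in WT empty libraries. The part of mast cell and myeloid markers in the result was not tested.

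The Utx contrast within Smarca4 gRNA libraries was not used to choose the genes, although same-numbered libraries may share a source with those that were. In it, 1 of 22 Auts2 regions (4.55%), 0 of 19 Tmtc2 regions and 3 of 5 Ccn3 regions (60%) were gained, against 0.859% of 52291 regions over all genes. Lost were 2 Auts2, 3 Tmtc2 and 0 Ccn3 regions, against 12.3% of all regions. Without WT library 1, a looser rule, 8 Auts2 regions were lost, with no share over all genes computed. Of the 14 regions gained with the empty vector, 4 were gained again, or 28.6%, against 13.1% of all 1168. They were 3 Ccn3 regions and the Auts2 region 120456 bases above the gene. Both KO Smarca4 gRNA libraries held those same 4, or 28.6%, against 20.4% over all genes. No KO Smarca4 gRNA library held 4 of 5 Auts2, 3 of 5 Tmtc2 and 0 of 4 Ccn3 regions gained with the empty vector, against 52% over all genes.

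Bases covered by all ATAC peaks nearest to a gene gave a value per library. At Ccn3 this length was 2467 and 2003 bases in KO Smarca4 gRNA libraries, against 0 and 0 in WT Smarca4 gRNA libraries. The difference of 2235 bases had an exact two-sided permutation p of 0.333, the smallest that 2 against 2 libraries allow, and 0.566 after Benjamini-Hochberg adjustment over 15052 genes. The groups did not overlap, as was the case in this direction for 3.6% of genes. With the empty vector Ccn3 covered 2805 and 2950 bases in KO and 0 and 0 in WT libraries.

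At Tmtc2 the length was 8547 and 8112 bases in KO Smarca4 gRNA, 12957 and 13882 in KO empty, 11157 and 10704 in WT Smarca4 gRNA and 9805 and 12736 in WT empty libraries. KO lay above WT with the empty vector, as for 6.82% of genes, and below WT with the gRNA, as for 55.3% of genes. The gRNA difference was -2601 bases (exact permutation p = 0.333, adjusted p = 0.566). Per megabase covered by the whole list it was 19.1 bases, with the opposite sign. The scaled groups overlapped, at 359 and 418 bases in KO and 395 and 343 in WT Smarca4 gRNA libraries.

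At Auts2 the length was 8257 and 6541 bases in KO Smarca4 gRNA, 12754 and 12630 in KO empty, 8006 and 11306 in WT Smarca4 gRNA and 9190 and 12289 in WT empty libraries. With the gRNA the groups overlapped, with a difference of -2257 bases (exact permutation p = 0.667, adjusted p = 0.853). Scaled per megabase covered by the list it was 18.8 bases, and the groups again overlapped, at 347 and 337 in KO and 284 and 363 in WT. For Auts2 and Tmtc2, the sign of the mean difference in Smarca4 gRNA libraries thus depended on the scaling, and no scaled groups were apart. Without WT Smarca4 gRNA library 2 the unscaled Auts2 difference was -607 bases, and without library 1 it was -3907.

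**Figure D2:**
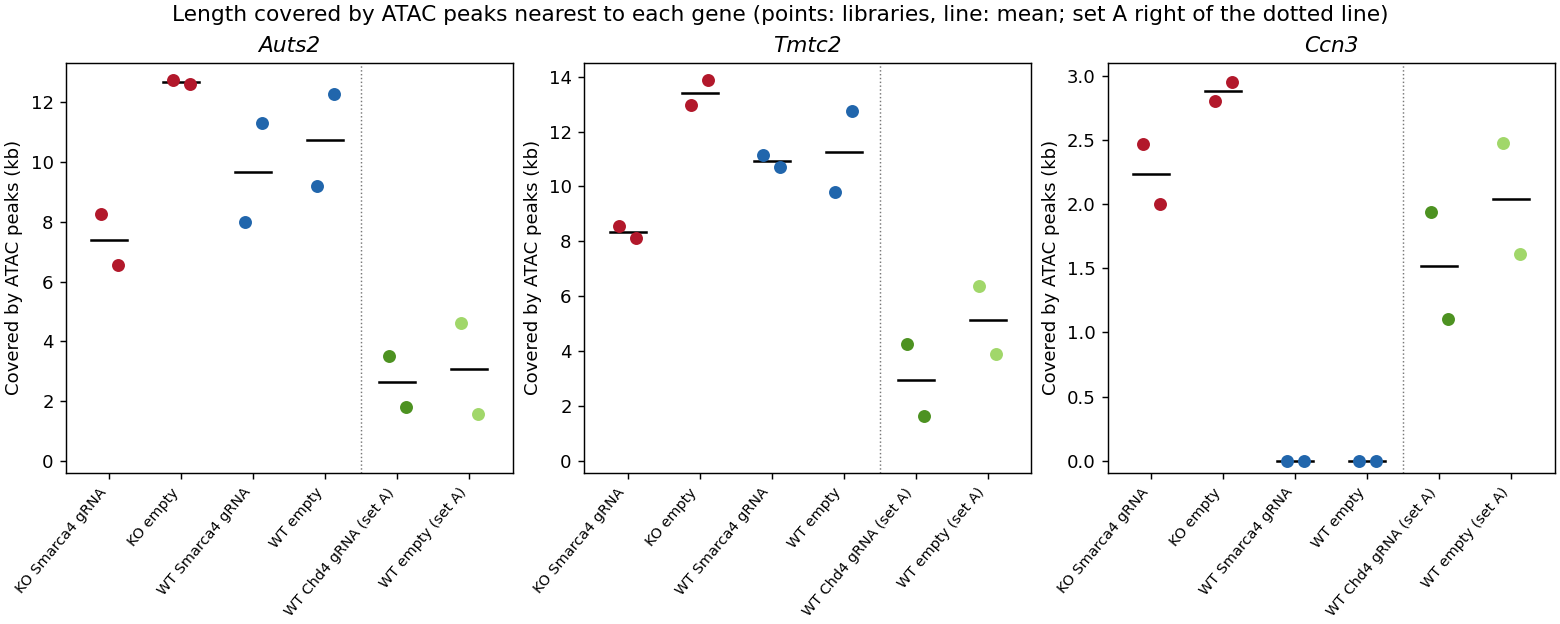
Length covered by the ATAC peaks nearest to each gene (vertical axis, kb from 0) in each library (points) of the 4 set B groups and, right of the dotted line, the 2 set A groups; lines are means of 2 libraries. All 4 WT libraries of set B are at 0 for Ccn3, and KO empty libraries are the highest group for each gene. The genes were chosen on KO empty against WT empty libraries, which favours a high KO empty group.

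Smarca4 gRNA libraries, set against empty-vector libraries of the same genotype, share their controls with the contrast that chose the genes and are given as a description. In KO cells 9 of 25 Auts2 regions and 8 of 26 Tmtc2 regions were lost, while 0 of 5 Ccn3 regions were, against 8.47% of 46613 regions over all genes. Gained were 0 regions of the 3 genes, against 0.341%. Covered length was lower in both KO Smarca4 gRNA than in both KO empty libraries at each of the 3 genes, as for 41% of genes. In KO cells Ccn3 kept 3 of its 5 regions in all 4 libraries. In WT cells 0 of 25 Auts2 and 2 of 21 Tmtc2 regions were lost, against 5.98%, and 0 were gained, against 0.911%. Ccn3 had no region in WT cells to compare. With the KO lists cut to the 29858 widest peaks each, 0 of 18 Auts2, 1 of 18 Tmtc2 and 1 of 4 Ccn3 regions were lost, against 3.43% of all regions.

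With lists of equal length (40424 widest peaks), the KO empty against WT empty contrast gave 7 gained of 27 regions at Auts2, 7 of 26 at Tmtc2 and 4 of 4 at Ccn3, against 5.53% of all regions, and 1 lost region, at Auts2, against 5.8%. The cut removed narrow WT peaks, in the contrast that chose the genes. An added Auts2 gain, chr5:132375146-132375442, was kept in the full lists, with 206 and 230 bases in WT empty libraries. In the Smarca4 gRNA libraries, cut to 29858 peaks, 2 of 16 Auts2, 1 of 14 Tmtc2 and 3 of 3 Ccn3 regions were gained, against 4.51%, and 2, both at Auts2, were lost, against 5.91%. Among the wider 50% of each list, 2 of 13 Auts2, 0 of 11 Tmtc2 and 2 of 2 Ccn3 regions were gained with the empty vector, against 1.22% of 29263 regions over all genes.

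Chd4 gRNA libraries of set A were compared with their empty-vector libraries in WT cells. Of 12 Auts2, 12 Tmtc2 and 4 Ccn3 regions, 0 were gained, against 0.224% over all genes, and 2, both at Tmtc2, were lost, against 13.7%. Without empty library 2 of set A, a looser rule, 11 regions of the 3 genes were lost, with no share over all genes computed. Covered length was 3511 and 1796 bases in Chd4 gRNA and 4603 and 1565 bases in empty libraries at Auts2. At Tmtc2 it was 4259 and 1616 bases in Chd4 gRNA and 6366 and 3881 bases in empty libraries. At Ccn3 it was 1935 and 1107 bases in Chd4 gRNA and 2478 and 1607 bases in empty libraries. The groups overlapped at each gene. Scaled per megabase covered by the list, Chd4 gRNA means lay above empty means at Auts2 (157 against 108) and Ccn3 (91.2 against 73.2). At Tmtc2 they lay below (170 against 183). With each library left out in turn the unscaled difference ranged from -3507.5 to -864.5 bases at Tmtc2 and from -957 to -86 bases at Ccn3. At Auts2 it ranged from -1949.5 to 1088.5 bases, so its sign was not stable. Exact permutation p was 1 for Auts2 and 0.667 for Tmtc2 and for Ccn3, with adjusted p of 1, 0.772 and 0.772 over 14417 genes.

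PU.1 islands covered more bases at Auts2 in each KO library than in any WT library, a difference that did not pass the test. Its islands covered 61881, 59707 and 66084 bases in KO libraries and 55507, 57708 and 41933 bases in WT libraries. The means were 62557 ± 3242 in KO and 51716 ± 8544 bases in WT libraries (SD, n = 3 each), and the groups did not overlap, as for 10.7% of genes in this direction. The exact two-sided permutation p was 0.1, the smallest possible with 3 against 3, and the adjusted p was 0.468 over 18611 genes. The difference of 10841 bases was smallest, at 5950, without WT library 3.

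Of the 150 PU.1 regions of Auts2, 10 were gained (6.67%), against 2.87% of all PU.1 regions, and 0 lost, against 1.16%. All libraries held 55 of the 150. The gained islands were weak, with 23 to 64 reads per library, while kept ones reached 712 reads. Of the 10, 8 lay inside the gene span. With lists of equal length (137836 islands), 4 of 120 were gained (3.33%), against 1.83% of all, and 2 were lost (1.67%), against 2.1%. The island at chr5:131600201-131600799 had 45, 26 and 34 reads in KO libraries and none was listed in WT libraries, and it overlaps the gained ATAC region that starts at 131600510. It was not among the 4 that were gained at equal list length. The other 4 gained ATAC regions of Auts2 had no PU.1 island in any library.

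The kept Auts2 ATAC region at chr5:131537168-131539195 carried PU.1 islands of 66, 42 and 106 reads in KO libraries and of 36 and 39 reads in 2 of 3 WT libraries. The PU.1 island with the highest read count in a single library, chr5:132466401-132468799, had 712, 541 and 494 reads in KO and 534, 588 and 611 reads in WT libraries, with no separation of the groups. Of the ATAC regions under it, chr5:132466269-132467588 was held by all 12 libraries, and chr5:132468005-132468415 by 1 KO empty and 1 WT empty library of set B.

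Tmtc2 had PU.1 islands of 25358, 20568 and 21365 bases in sum in KO and 25760, 27167 and 23170 bases in WT libraries. The difference of -2935 bases had an exact permutation p of 0.2 (adjusted p = 0.628), and the groups overlapped. Of 51 regions 0 were gained, against 2.87% of all PU.1 regions, and 1 was lost, against 1.16%. The lost one, chr10:105232801-105233399, had 60, 50 and 46 reads in WT libraries. The joined region over the promoter, chr10:105572401-105576199, held 2, 2 and 1 islands in KO and 3, 1 and 1 islands in WT libraries. Their summed reads were 690, 569 and 607 in KO and 518, 626 and 630 in WT libraries, and the groups overlapped. The 5 gained ATAC regions of Tmtc2 had no PU.1 island and no H3K4me1 island in any library.

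At Ccn3 the PU.1 islands covered 1597, 1197 and 3595 bases in KO and 1197, 1398 and 998 bases in WT libraries (difference 932 bases, exact permutation p = 0.3, adjusted p = 0.708). Without KO library 3 the difference was 199 bases. The island at the lower end of the gene, chr15:54745401-54745999, was listed in all 6 libraries, with 60, 33 and 77 reads in KO and 25, 45 and 40 reads in WT libraries. These reads are not scaled for depth, and the groups overlap. PU.1 islands in WT libraries thus lay within an ATAC region that no WT library of set B listed, although the ATAC samples carried Cas9 and an empty or gRNA construct and the ChIP samples did not, per the labels. The ATAC region at chr15:54736181-54737000 had a PU.1 island in KO library 3 only, with 240 reads. Of the gained ATAC regions, 4 of 5 at Auts2, 5 of 5 at Tmtc2 and 2 of 4 at Ccn3 had no PU.1 island in any library, against 59.8% of all gained regions.

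**Figure D3:**
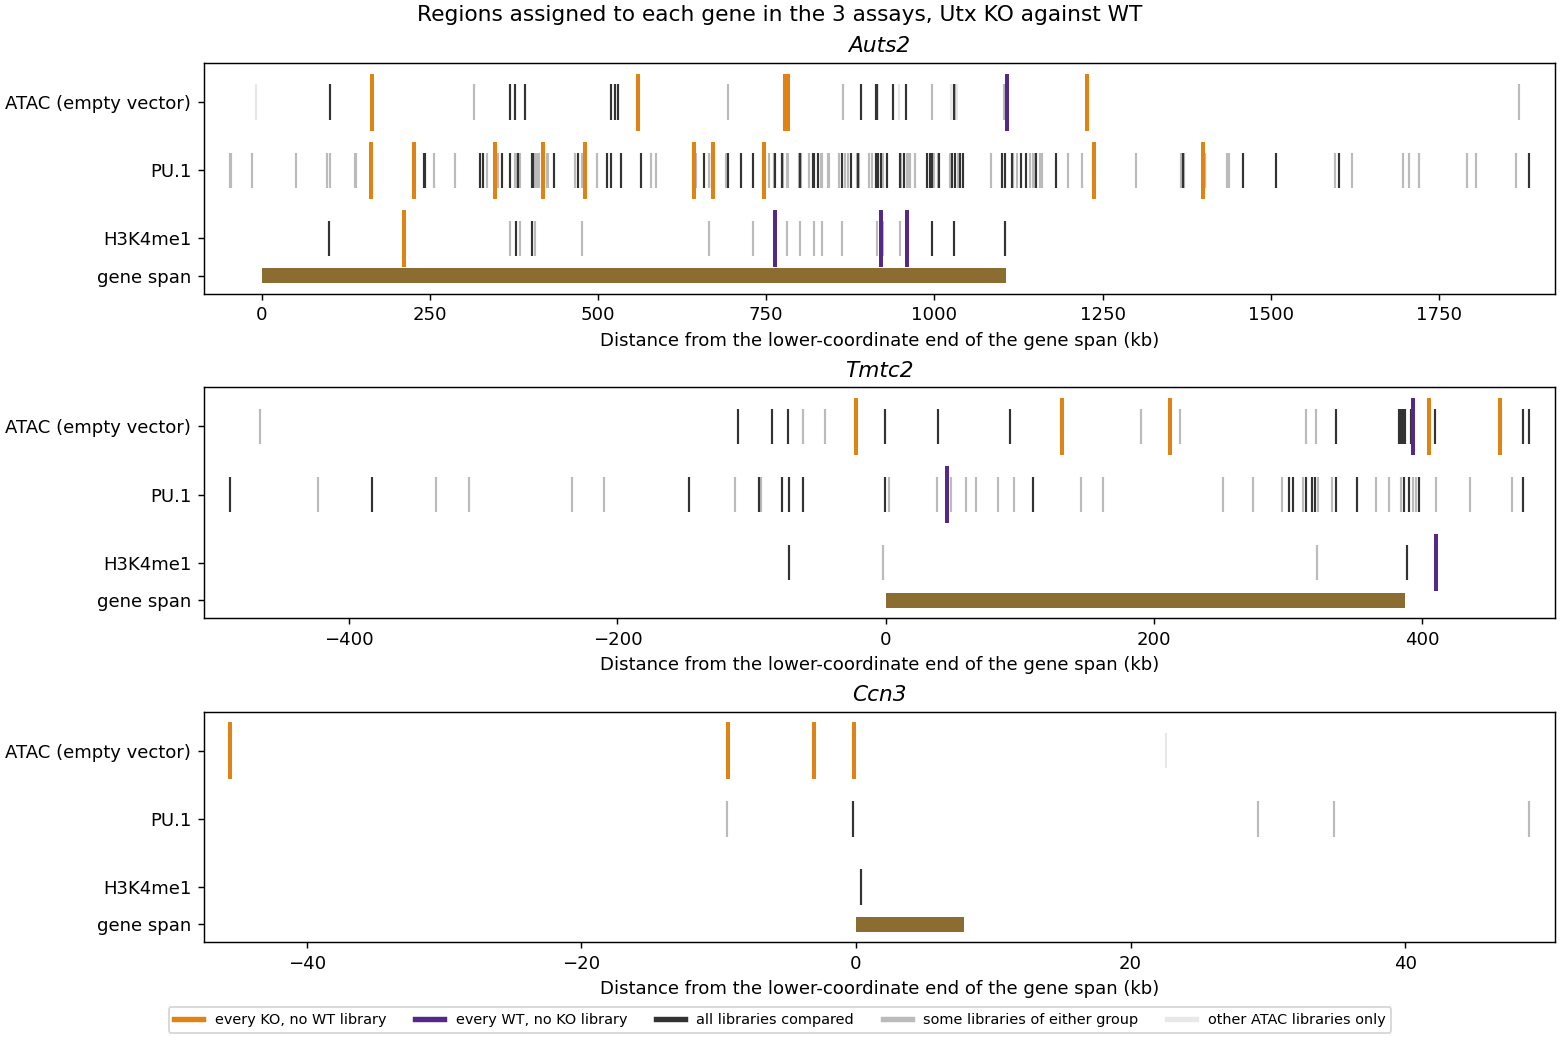
Position of the ATAC, PU.1 and H3K4me1 regions nearest to each gene, as distance in kb from the lower-coordinate end of the gene span (brown bar), for KO against WT (ATAC with the empty vector). Orange marks regions of every KO and no WT library, purple the opposite; orange ATAC and PU.1 marks coincide once, at Auts2.

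H3K4me1 islands at Auts2 covered 29789 and 46386 bases in KO and 37587 and 60981 bases in WT libraries, and the groups overlapped (difference -11197 bases, exact permutation p = 0.667, adjusted p = 1 over 16559 genes). Of 24 regions 1 was gained, against 2.32% over all genes, and 3 were lost (12.5%), against 10.7%. Without WT library 1, a looser rule, 7 Auts2 regions were lost, with no share over all genes computed. The gained island, chr5:131647201-131651799, had 71 and 92 reads in KO libraries. The lost islands had 69 and 112 reads in WT libraries at chr5:132198601-132202999, 54 and 112 at chr5:132356001-132358999 and 82 and 128 at chr5:132393601-132398399. The last of these contains the ATAC region at chr5:132395211-132396548, which was held by all 8 set B libraries with less covered length in KO than in WT. The gained island was 1 of 8 H3K4me1 regions in the lower 50% of the gene span. The 3 lost ones were among 16 regions in the upper 50%.

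The kept Auts2 ATAC region at chr5:131537168-131539195 carried H3K4me1 islands of 97 and 150 reads in KO and 93 and 107 reads in WT libraries. The island at the upper end of Auts2 had 219 and 282 reads in KO and 184 and 270 reads in WT libraries, and in both KO libraries and in WT library 2, though not in WT library 1, it reached over the ATAC region that was lost in KO. At Tmtc2, H3K4me1 covered 4598 and 8997 bases in KO and 6997 and 17795 bases in WT libraries (difference -5599 bases, exact permutation p = 0.667, adjusted p = 1). The difference was -199.5 bases without WT library 2 and -10997.5 bases without WT library 1. Of its 5 regions 0 were gained, against 2.32% over all genes, and 1 was lost, against 10.7%. The lost one, chr10:105596801-105599599, had 37 and 81 reads in WT libraries. The joined region over the promoter, chr10:105572401-105580199, held 1 and 2 islands in KO and 1 and 1 in WT libraries, with summed reads of 118 and 190 in KO and 108 and 238 in WT libraries.

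Ccn3 had 1 H3K4me1 island, chr15:54745001-54747599, over the lower end of the gene, with 49 and 75 reads in KO and 31 and 54 reads in WT libraries. It covered 1799 and 2399 bases in KO and 999 and 2399 bases in WT libraries (difference 400 bases, exact permutation p = 1, adjusted p = 1). Scaled per megabase covered by the list, the length was 10 and 10.6 bases in KO and 4.97 and 8.44 bases in WT libraries. The share of genes with scaled groups apart was not computed. With lists of equal length (43699 islands) the island was listed in both KO libraries and in neither WT one, as were 5.32% of all H3K4me1 regions. Of the gained ATAC regions, 4 of 5 at Auts2, 5 of 5 at Tmtc2 and 3 of 4 at Ccn3 had no H3K4me1 island in any library, against 57.9% of all gained regions.

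**Figure D4:**
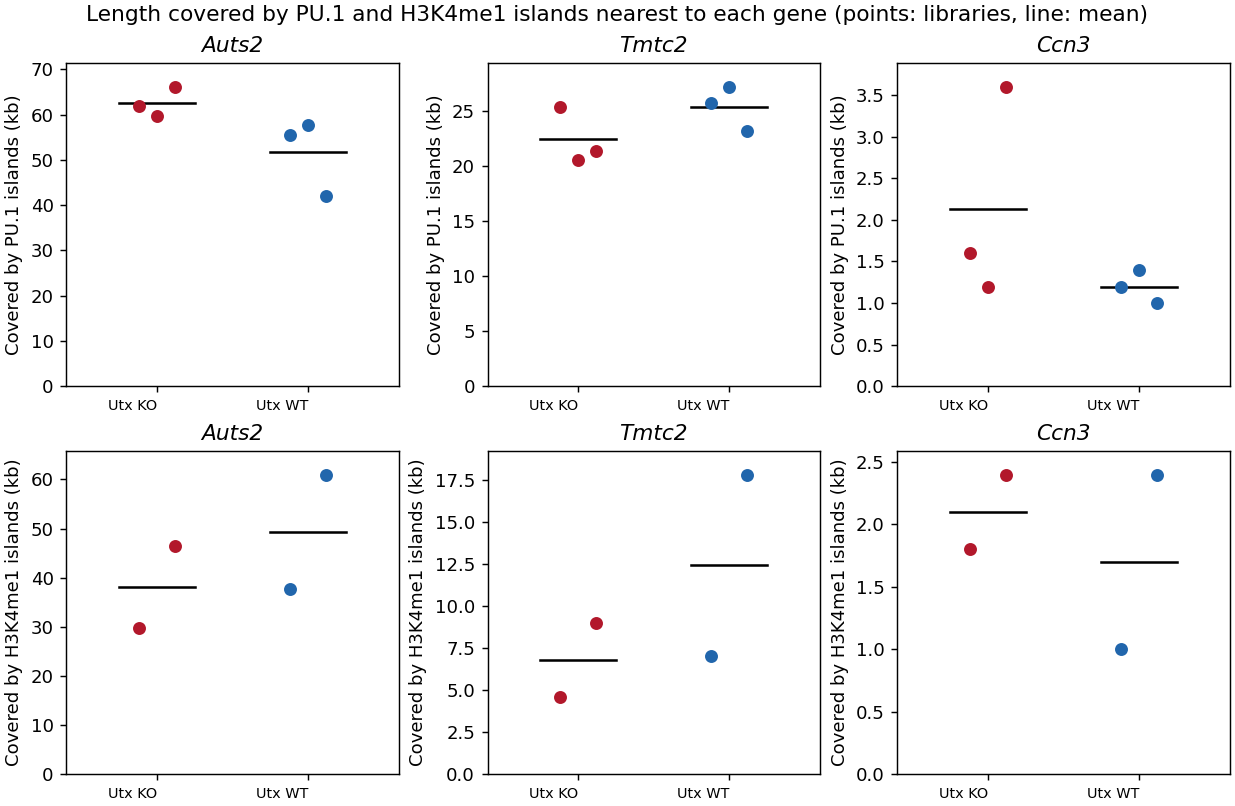
Length covered by PU.1 islands (top) and H3K4me1 islands (bottom) nearest to each gene (vertical axis, kb from 0) in KO (red) and WT (blue) libraries; points are libraries and lines are means. The KO and WT points are apart for PU.1 at Auts2, 59707 bases and above against 57708 and below, and overlap in the other 5 panels.

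Relatives and partners of the 3 genes were listed with earlier results in view. The 5 other CCN genes had 21 ATAC regions with the empty vector, of which 0 were gained and 3 lost, 2 of 3 at Ccn4 and 1 of 8 at Ccn5. The 6 other O-mannosyltransferase genes had 22, with 0 gained and 2 lost, 1 of 3 at Pomt1 and 1 of 5 at Tmem260. The 11 AUTS2 paralogs and partners had 47, with 0 gained and 5 lost, of which 2 of 7 lay at Fbrsl1, 1 of 2 at Fbrs, 1 of 14 at Rybp and 1 of 7 at Yaf2. Over all genes 1.98% were gained and 11.3% lost. In the Smarca4 gRNA libraries 0 regions of these lists were gained, against 0.859% over all genes. Lost there, against 12.3%, were 2 of 13 CCN regions (both at Ccn6), 3 of 22 O-mannosyltransferase regions (1 each at Tmtc1, Tmtc4 and Pomt1) and 3 of 37 AUTS2 partner regions (2 at Yaf2, 1 at Rybp).

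Of PU.1 regions, the CCN genes gained 1 (Ccn4) and lost 0 of 54, and the O-mannosyltransferases gained 2 (Tmtc4, Pomt1) and lost 1 (Tmtc1) of 80. The AUTS2 partners gained 4 of 216, 2 of them at Pcgf5 and 1 each at Yaf2 and Ep300, and lost 6, of which 4 lay at Rybp and 1 each at Fbrsl1 and Yaf2. The shares over all genes were 2.87% gained and 1.16% lost. Of H3K4me1 regions, the CCN genes gained 0 and lost 3 of 20 (2 at Ccn5, 1 at Ccn6), and the O-mannosyltransferases gained 0 and lost 3 of 24 (1 each at Tmtc1, Tmtc4 and Pomt2). The AUTS2 partners gained 1 of 98, at Pcgf5, and lost 17, against 2.32% gained and 10.7% lost over all genes. Rybp, which encodes a subunit of variant Polycomb complexes, held 12 of these 17 among its 37 regions, Csnk2a1 held 2, and Pcgf3, Pcgf5 and Ep300 held 1 each.

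Among the genes next to the 3, Castor2, next to Auts2, had 1 of 6 ATAC regions lost with the empty vector, against 11.3% over all genes. Next to Tmtc2, Gm4340 had 1 of 13 PU.1 regions lost, against 1.16%. Mettl25 had 1 of 5 ATAC regions gained with the empty vector, against 1.98%, and 1 of 2 H3K4me1 regions gained, against 2.32%. Enpp2, next to Ccn3, had 1 ATAC region, gained in the Smarca4 gRNA libraries (0.859% over all genes), and 1 of 3 H3K4me1 regions gained (2.32%). Galnt17, next to Auts2, and Mal2, next to Ccn3, had 0 ATAC regions in the Utx contrasts. Each had 5 PU.1 regions, of which 0 were gained or lost.

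Other genes were ranked by the correlation of their covered ATAC length with that of each of the 3 genes over the 8 libraries of set B. Among 8904 genes with 3 or more regions, those most like Ccn3 were Klhl4 (Pearson r = 0.99), Tafa1 (0.98) and Retnlg (0.98). Klhl4 covered 1111 and 760 bases in KO Smarca4 gRNA, 1367 and 1431 in KO empty and 0 in all WT libraries of set B, and 0 in all of set A, unlike Ccn3. Retnlg covered 226 and 283 bases in KO Smarca4 gRNA and 336 and 327 in KO empty libraries, with 0 in WT libraries of set B and 1264 and 389 bases in WT empty libraries of set A. Closest to Auts2 were Stpg2 (0.98), Maob (0.97) and Cntln (0.95), and closest to Tmtc2 were Cul9 (0.98), Cped1 (0.97) and Zfp52 (0.97). KO empty lay above WT empty libraries at Stpg2, Cul9 and Zfp52, and the groups overlapped at Maob, Cntln and Cped1. Cntln covered 3731 and 3606 bases in KO empty and 3410 and 3866 in WT empty libraries. Zfp52 covered 1900 to 2025 bases over set B. These libraries share list length and set, so the correlations are a description with no test.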

How the data were processed

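Peak lists of 22 of the 24 samples were used; the 2 input libraries had no list here. Per the submitters' processing notes, Bowtie2, SICER, Bowtie and MACS2 (set A: Bowtie and MACS2) and build mm10 were used; versions and the role of each tool are not given in the sources used here. The deposited ChIP lists give islands on a 200 bp grid with a whole number, read here as a count of reads per island; the format, not a label, gives that meaning, and counts were compared without scaling. The deposited ATAC lists give start and end only. Peaks were called per sample. The 2 libraries of each ATAC group shared 8 to 19 identical intervals, so none was a copy of another.

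Each peak was assigned to the nearest protein-coding RefSeq gene span (GRCm38) with bedtools 2.31.1, and peaks of an assay were merged within a gene. Reads of a region are summed where a library listed more than 1 island in it. Scripts used Python 3.11.15, pandas 2.3.3 and scipy 1.17.1. Covered length per gene was compared with two-sided exact permutation tests in 4 comparisons, with Benjamini-Hochberg adjustment over all genes with a region and a threshold of 0.05. The genes, gene lists and rules were chosen with earlier results of these data known. Named were the 3 genes with all regions, neighbours and relatives with a region that differed, and the 3 most correlated genes of each. Alternatives were 50% cover, merging per comparison, equal list length, the wider or stronger 50% of each list, peaks within 50 kb, peak number, scaling per covered megabase, pairing by replicate number and each library left out. The replicate numbers were not taken to pair the libraries. The calculations were checked on simulated data.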

Additional observations from a re-analysis of the deposited data

Results flagged for a closer look

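The covered ATAC length of Tmtc2 went opposite ways in the 2 Utx contrasts of set B. With the Smarca4 gRNA it was 8547 and 8112 bases in KO and 11157 and 10704 bases in WT libraries, a difference of -2601 bases. With the empty vector it was 12957 and 13882 bases in KO and 9805 and 12736 bases in WT libraries, a difference of 2149 bases. The gap between these differences was -4750 bases and was not tested. The empty-vector contrast chose the gene, so its sign there was favoured by the choice. KO lay above WT with the empty vector for 6.82% of genes, and below WT with the gRNA for 55.3%. Per covered megabase of the list the differences were 19.1 and 177 bases, with the same sign. With the gRNA the scaled groups overlapped, at 359 and 418 in KO and 395 and 343 in WT libraries.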

How the results depend on the processing

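Counts below are totals over the 3 genes, with the value as reported in brackets, and the cause of each shift was not tested unless the setting itself removes peaks. Shares over all genes were computed for equal list length in most comparisons and for the upper 50% with the empty vector. For the other settings they were not. Leaving out a library loosens the gained and lost rule for every gene. At equal list length, 1 region was lost with the empty vector (2), 2 in the Smarca4 gRNA Utx contrast (5), 2 (17) and 1 (2) for Smarca4 in KO and WT cells, and for Chd4 2 were gained (0) and 0 lost (2). There, PU.1 gave 4 gained (10) and 3 lost (1), and H3K4me1 3 gained (1). In the upper 50% of each list, the empty-vector contrast gave 4 gained (14) and 1 lost (2), the gRNA contrast 2 gained (4), Smarca4 5 lost in KO (17) and 0 in WT cells (2), Chd4 0 lost (2), PU.1 5 gained (10) and H3K4me1 1 lost (4). Within 50 kb the gRNA contrast lost 3 (5) and Chd4 0 (2). With 50% cover PU.1 lost 3 (1). Covered length per megabase of the list turned the sign of the gRNA Utx contrast at Auts2 (18.8) and Tmtc2 (19.1), where scaled groups overlapped. It also turned the sign of Chd4 at Auts2 (49.8) and Ccn3 (18.1). Counted as peaks, Chd4 differed by 0 at Auts2 and Ccn3, H3K4me1 by 0 at Ccn3 and PU.1 by 2 at Tmtc2, with the sign turned. At equal list length Chd4 at Auts2 turned to 415.5 bases.

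With each library left out in turn, the totals ranged over 14 to 18 gained and 2 to 5 lost (empty vector), 4 to 7 gained and 6 to 12 lost (gRNA contrast), 0 to 1 gained (Smarca4 in KO), 0 to 4 gained and 3 to 7 lost (Smarca4 in WT), 0 to 3 gained and 2 to 11 lost (Chd4), 11 to 16 gained and 1 to 5 lost (PU.1), and 1 to 3 gained and 4 to 10 lost (H3K4me1). Covered length ranged from -1949.5 to 1088.5 bases for Chd4 at Auts2, where leaving out Chd4 gRNA library 2 or empty library 1 turned the sign. For H3K4me1 it ranged from -22893.5 to 500.5 at Auts2 (turned without WT library 2) and from -300 to 1100 at Ccn3 (turned without WT library 1). As a replicate block, pairs of same-numbered libraries give the same gained and lost regions by definition, so those counts check nothing. The block moved the exact p of PU.1 at Auts2 to 0.25, the smallest that 3 pairs allow. Same-numbered deviations correlated at 0.16 for Smarca4 in WT cells, 0.17 for Chd4 and 0.03 or less elsewhere, and the labels do not say that numbers pair libraries. Depth is unknown for ATAC, and with 2 or 3 libraries a group no test of covered length could pass the threshold.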
